A study of Homo sapiens with 24 samples.

Results

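Prostaglandin synthesis and reception were followed through 8 genes in T/C-28a2, an immortalised line of human chondrocytes. The genes were taken by symbol: *PLA2G4A*, *PTGS1*, *PTGS2*, *PTGES*, *PTGIS*, *HPGD*, *PTGER2* and *PTGER4*. All 8 were found among the 62703 Ensembl identifiers counted, and 7 of them were among the 16600 genes that passed the filter on low counts. The exception was *PTGER4*, which was listed at 0 in all 24 libraries.

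Prostaglandins are short-lived lipid signals made on demand. Cytosolic phospholipase A2 (*PLA2G4A*) releases arachidonic acid from membranes, the cyclooxygenases (*PTGS1*, constitutive in most tissues, and *PTGS2*, inducible) turn it into prostaglandin H2, and terminal synthases make the final products: prostaglandin E2 by microsomal PGE synthase (*PTGES*) and prostacyclin by *PTGIS*. *HPGD* inactivates prostaglandin E2, which acts through receptors that include EP2 (*PTGER2*) and EP4 (*PTGER4*), both of which raise cyclic AMP. In cartilage the *PTGS2* and *PTGES* pair is known as an inflammatory source of prostaglandin E2.

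Poly(A) RNA was sequenced in 6 groups of 4 libraries, which the study describes as biological replicates. Unmodified (WT) cells were kept in isotonic medium at 300 mOsm (WT Ctr) or for 7 days with 100 mM sorbitol at 400 mOsm (WT Sor), a hyperosmotic condition. WT cells were also transfected for 48 hours with a WNK2 expression plasmid and then kept without (WNK2 trans Ctr) or with the same sorbitol treatment (WNK2 trans Sor). The study describes no group given an empty plasmid. WNK2- cells carry a CRISPR/Cas9 deletion of exon 2 of the osmosensitive kinase gene *WNK2* and were kept without (WNK2- Ctr) or with sorbitol (WNK2- Sor). They were isolated as clonal lines, so a difference of the clone from the parental line cannot be told apart from one of the deletion.

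*WNK2* was counted first to check the labels. In unmodified cells 1217 to 2568 reads were counted with isotonic medium (WT Ctr) and 266 to 314 with sorbitol. The transfected libraries gave 163 to 290 reads without sorbitol and 2237 to 3739 with it, and the deleted cells 440 to 501 and 322 to 503. *WNK2* was therefore lower in the isotonic libraries named as transfected than in those named as unmodified, against both labels. Scaled to library size, *WNK2* averaged 16.5 CPM in WT Sor, not above WNK2- Sor (19.6 CPM) or WNK2- Ctr (22.1 CPM). WNK2- Sor against WT Sor therefore compares groups without higher *WNK2* RNA in the unmodified cells. WT Sor lay near WNK2 trans Ctr (13.7 CPM), and WT Ctr (137 CPM) near WNK2 trans Sor (165 CPM). The study instead reports no significant *WNK2* change with sorbitol or transfection in WT cells, and a decrease in WNK2- cells. The labels are kept throughout, and calls that were lost or turned when the other isotonic WT group was used are named beside the results. Counts per gene cannot show whether exon 2 was present. Total counts ran from 14153002 to 25664619 per library. Of 16 chondrocyte markers, 10 passed the filter on low counts, with *HAPLN1* highest at 57.2 CPM (counts scaled to library size) over all libraries. *SOX9* and *CHAD* were at 0, but both lie wholly inside other gene bodies. Of protein-coding genes so placed, 97.9% were listed at 0, so these zeros cannot be read as absence of their RNA. The summed level of these markers was 93.3 to 160 CPM in the libraries of the 4 groups of WT background and 27.8 to 31.9 CPM in the WNK2- libraries. That sum was carried by *HAPLN1*, at 117 ± 23.4 CPM (SD, n = 4) in WNK2 trans Sor. Of the 10 tested markers, 7 were lower and 1 higher in WNK2 trans Sor than in WT Sor (median −1.55, 31.7% of all genes passing). Against WNK2 trans Ctr 7 were lower and 3 higher (median −2.19, 48% of all genes passing). Among the lower were *COL9A3* (1.85 against 11.2 and 19.3 CPM), *ACAN*, *COMP* and *COL2A1*. *HAPLN1* went the other way, with 66.5 CPM in WT Sor and 46.4 CPM in WNK2 trans Ctr. Between WNK2 trans Sor and WT Ctr, 5 of the 10 were lower and 1 higher (median −1.10, 39.2% of all genes passing). *COL9A3* had 7.67 CPM in WT Ctr. The part of these markers in the differences below, for the WNK2- cells and for *PTGES* and *PTGER2* in WNK2 trans Sor, was not tested. Of 7 epithelial markers, the keratins *KRT8* (561 CPM) and *KRT18* (317 CPM) were high in this line and the rest were low. Over all libraries together *EPCAM* had 393 reads, *CDH1* 156, *KRT19* 39, *KRT5* 7 and *KRT14* 3. Summed endothelial markers, with *PECAM1* and *CDH5* highest, ran from 24.7 CPM in WNK2- Ctr to 107 CPM in WNK2 trans Sor. Of 9 macrophage and leukocyte markers, only *CD14*, *CSF1R* and *ITGAM* passed the filter, and the summed level of the list ran from 6.66 to 25.0 CPM. *CD68* was at 0, and it too lies wholly inside other gene bodies. Of 7 platelet and mast cell markers only *ITGA2B* passed, with *PF4*, *PPBP* and *CPA3* at 0 and sums of 2.86 to 21.1 CPM. Of these, *CPA3* lies wholly inside another gene body.

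The promoters of 3 of the genes are printed because *PTGS2* and *PLA2G4A* lie next to each other and moved together in WNK2- cells. *PTGES* lies elsewhere and fell with sorbitol in WNK2- cells, where *PTGS2* did not fall. In WT cells the direction of the *PTGES* change depended on the isotonic group, as given below. Each runs 5′ to 3′ on the gene's own strand from 250 bases before to 50 bases after the RefSeq start site on GRCh38.p14: chr1:186680374-186680673 on the minus strand for *PTGS2*, chr1:186828699-186828998 on the plus strand for *PLA2G4A* and chr9:129752993-129753292 on the minus strand for *PTGES*. Capitals mark matches on either strand to GGG, any 5 bases and CC (the NF-κB type), TGACG (which also lies within the cyclic AMP response element TGACGTCA), TATAAA (the TATA box), TGGAAA (the core of the tonicity element) or TGANTCA (the AP-1 type).
PTGS2: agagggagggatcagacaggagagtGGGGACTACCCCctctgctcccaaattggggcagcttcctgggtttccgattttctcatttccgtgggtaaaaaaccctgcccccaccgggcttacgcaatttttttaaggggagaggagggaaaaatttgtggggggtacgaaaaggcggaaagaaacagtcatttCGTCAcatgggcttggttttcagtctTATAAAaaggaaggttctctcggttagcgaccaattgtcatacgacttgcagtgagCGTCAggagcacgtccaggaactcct
PLA2G4A: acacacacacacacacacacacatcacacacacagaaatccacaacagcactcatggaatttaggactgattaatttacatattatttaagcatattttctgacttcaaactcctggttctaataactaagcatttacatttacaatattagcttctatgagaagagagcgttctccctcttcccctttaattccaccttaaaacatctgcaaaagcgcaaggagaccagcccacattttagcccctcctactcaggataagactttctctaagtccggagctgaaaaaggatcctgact
PTGES: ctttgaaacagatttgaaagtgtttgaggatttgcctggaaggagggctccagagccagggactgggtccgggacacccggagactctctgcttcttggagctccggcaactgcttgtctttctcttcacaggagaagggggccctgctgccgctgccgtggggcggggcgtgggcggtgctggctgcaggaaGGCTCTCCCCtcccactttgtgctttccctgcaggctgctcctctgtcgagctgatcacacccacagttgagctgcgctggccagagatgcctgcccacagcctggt
The *PTGS2* promoter held an NF-κB type match starting at position −225, TGACG on the opposite strand at −58 and 24 and a TATA box at −32, counted from 0 at the start site. The *PTGES* promoter held 1 NF-κB type match at −57, and the *PLA2G4A* promoter held none of these letters. Among 35116 promoters of the same length, 58.7% held the NF-κB type, 24.6% TGACG, 1.85% TGACGTCA, 11.5% the TATA box, 20.7% the tonicity core and 7.71% the AP-1 type. These are matches of letters, not measured binding.

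Taken per kilobase of exon, *PTGS2* was the highest of the 8 in WT Ctr at 33.5 ± 4.71 CPM per kilobase (SD, n = 4). *PTGES* at 19.4 ± 3.02 and *PLA2G4A* at 19.3 ± 3.28 CPM per kilobase followed, at about the same level. *PTGER2* stood at 5.29 ± 1.14 and *PTGIS* at 1.51 ± 0.226 CPM per kilobase. *HPGD* at 0.460 ± 0.244 and *PTGS1* at 0.186 ± 0.0611 CPM per kilobase were near the lower end of what these libraries could measure. This order holds only if reads were counted over exons, which is not given in the sources used here. The zeros go against that assumption. Of protein-coding genes wholly inside other gene bodies 97.9% were listed at 0, against 10.8% of those outside. The order between genes is therefore not firm. The body of *PLA2G4A* spans 160 kb against 2875 bases of exon, so counting over gene bodies would change the scale. All other levels below are CPM scaled by edgeR's TMM factors, which compare 1 gene between libraries and not genes with each other.

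**Figure D1:**
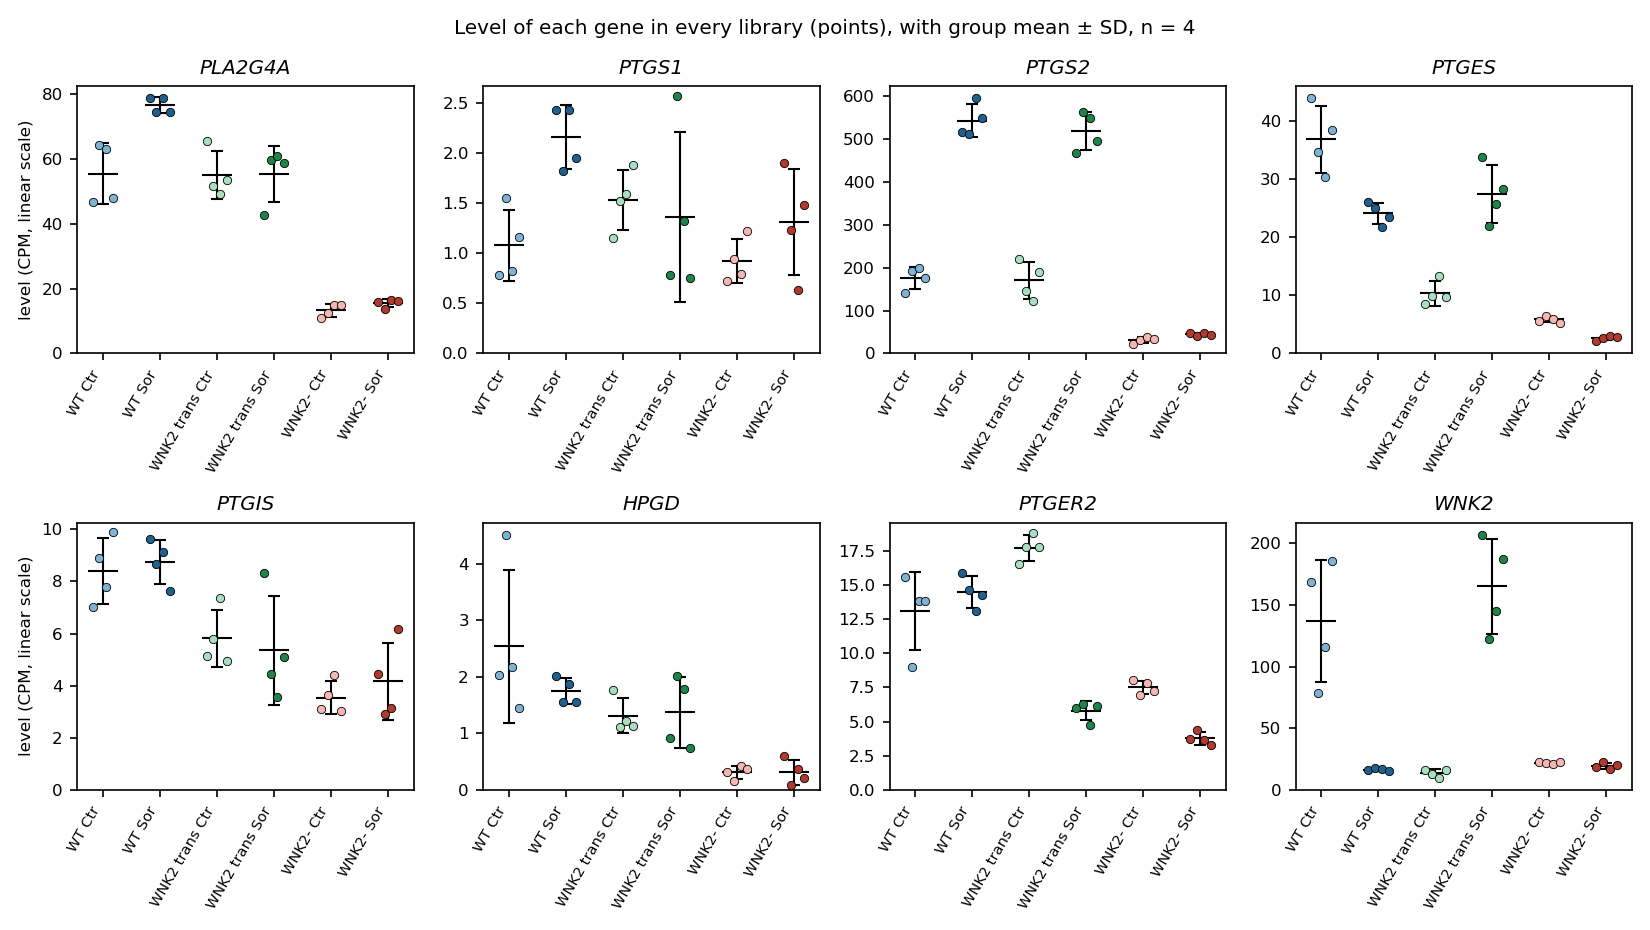
Level in CPM (linear axis) of the 7 genes above the filter and of WNK2 in each of the 24 libraries, with the group mean and SD (n = 4). PTGS2 was highest in both sorbitol groups of WT background (467 to 595 CPM), 5 of the 7 genes were lowest in the WNK2- groups without overlap with WT Ctr or WT Sor, and WNK2 itself was high in WT Ctr and WNK2 trans Sor.

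The clearest difference was between WNK2- and WT cells. In isotonic medium, 6 of the 7 measured genes were lower in WNK2- Ctr than in WT Ctr by edgeR's quasi-likelihood test (adjusted p under 0.05), and none was higher. The exception was *PTGS1*. In the same comparison 42.1% of all tested genes passed the threshold in either direction. The median log2 fold change was −2.05 over the 7 genes and 0.00 over all tested genes. Under sorbitol the same 6 genes were lower in WNK2- Sor than in WT Sor, where 46.3% of all tested genes passed, with medians of −2.31 and 0.02. With WNK2 trans Ctr as the isotonic WT group the same 6 were again lower (47.7% of all genes passing). With WNK2 trans Sor as the sorbitol group 5 were lower (33.3% of all genes passing), *PTGIS* being the one lost. In these bulk libraries, fewer cells that express a gene and less RNA per cell cannot be told apart.

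Sorbitol moved fewer of the genes. Between WT Sor and WT Ctr, 3 of the 7 were higher and 1 was lower (24.1% of all genes passing). Between WNK2- Sor and WNK2- Ctr, 1 was higher and 2 were lower (14.9% of all genes passing). Between WNK2 trans Sor and WNK2 trans Ctr, 2 were higher and 1 was lower (48% of all genes passing). With the isotonic WT groups exchanged, WT Sor against WNK2 trans Ctr gave 3 higher and 0 lower (15.1% of all genes passing), and WNK2 trans Sor against WT Ctr gave 1 higher and 3 lower (39.2% of all genes passing). Transfection moved 2 genes in isotonic medium, 1 in each direction (12.5% of all genes passing), and 3 genes under sorbitol, all lower (31.7% of all genes passing). Among 7 genes, 2 to 4 calls are too few to be set apart from these shares.

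**Figure D2:**
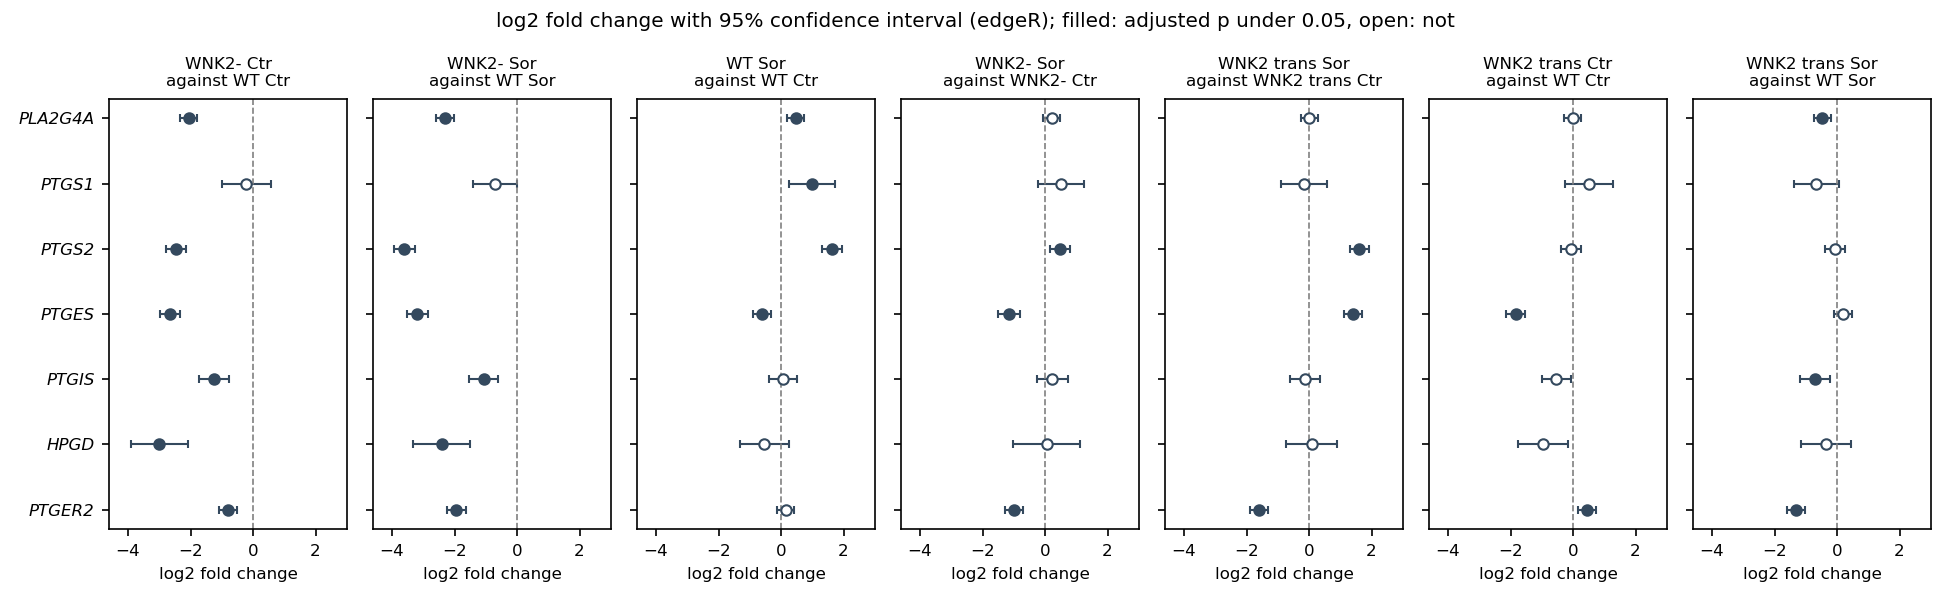
Log2 fold change (points) with its 95% confidence interval (bars) from edgeR for the 7 genes in the 7 comparisons between 2 groups, with filled points for an adjusted p under 0.05. In the 2 panels of WNK2- against WT every filled point lies left of 0, and in the 3 panels of sorbitol against isotonic medium PTGS2 is right of 0 in each.

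*PLA2G4A*, the phospholipase that feeds the pathway (ENSG00000116711, GRCh38 chromosome 1, 186828953 to 186988981, plus strand), had 46.6, 64.2, 63.0 and 48 CPM in WT Ctr and 74.5 to 78.9 CPM in WT Sor. In WNK2- Ctr it had 10.9, 12.5, 14.8 and 15 CPM and in WNK2- Sor 13.6 to 16.5 CPM. Every WNK2- library lay below every other library. Against WT Ctr the difference was −2.05 on the log2 scale (SE, standard error, 0.14, adjusted p = 8.17e-12 in edgeR), and against WT Sor it was −2.31 (0.14, adjusted p = 3.85e-13). Against WNK2 trans Ctr it was −2.04 (0.14, adjusted p = 4.76e-12). Sorbitol raised it slightly in WT cells, with no overlap between the groups, by 0.47 (0.13, adjusted p = 0.00947) against WT Ctr and 0.48 (0.13, adjusted p = 0.0111) against WNK2 trans Ctr. In the WNK2- cells the sorbitol difference was 0.21 (95% confidence interval −0.07 to 0.49, adjusted p = 0.338), and the difference between the 2 responses, −0.25 (0.19), did not pass (adjusted p = 0.432). In the transfected cells sorbitol gave 0.01 (interval −0.25 to 0.28), and WNK2 trans Sor was lower than WT Sor by −0.47 (0.13, adjusted p = 0.00686). The difference between the transfected and untransfected responses, −0.45 (0.18), had an adjusted p of 0.0526 in edgeR. It passed in 10 of 24 fits that left out 1 library (−0.47 to −0.55, adjusted p = 0.0251 to 0.0493), namely WT Ctr replicate 2 or 3, WNK2 trans Ctr replicate 3, WNK2 trans Sor replicate 2, 3 or 4, or any of the WNK2- Ctr replicates.

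*PTGS2*, the inducible cyclooxygenase (ENSG00000073756, GRCh38 chromosome 1, 186671791 to 186680427, minus strand), had the largest sorbitol response of the 7 genes in WT cells. It had 142, 191, 198 and 175 CPM in WT Ctr and 517, 512, 595 and 548 CPM in WT Sor. The sorbitol values were about 3-fold higher with no overlap, a log2 change of 1.62 (SE 0.15, adjusted p = 4.61e-08 in edgeR). The transfected cells gave nearly the same picture, with 220, 146, 122 and 190 CPM in WNK2 trans Ctr and 467, 563, 548 and 496 CPM in WNK2 trans Sor. Their sorbitol change was 1.61 (0.15, adjusted p = 4.18e-09). Exchanging the 2 isotonic groups left both changes in place, at 1.68 (0.15, adjusted p = 1.85e-08) and 1.56 (0.15, adjusted p = 1.85e-08). Transfection itself was not separable from 0 for *PTGS2*, with −0.06 (interval −0.37 to 0.25) in isotonic medium and −0.07 (interval −0.37 to 0.24) under sorbitol.

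In WNK2- cells *PTGS2* was both lower and less responsive. It had 23.0, 31.4, 38.5 and 34.7 CPM in WNK2- Ctr and 47.0, 39.5, 48.4 and 42.8 CPM in WNK2- Sor, all below the lowest WT library. The log2 fold change was −2.47 (SE 0.16, adjusted p = 5.95e-12 in edgeR) against WT Ctr and −3.61 (0.17, adjusted p = 4.10e-15) against WT Sor, where the level was 0.0818 of that in WT. The difference from WNK2 trans Ctr was −2.41 (0.16, adjusted p = 4.73e-12). Sorbitol raised it in WNK2- cells by 0.48 (0.15, adjusted p = 0.0366), with no overlap between the groups. That call was not firm, since it was lost in 7 of 24 fits that left out 1 library. Without WNK2- Ctr replicate 1, 2 or 4 the changes were 0.34, 0.46 and 0.51 (adjusted p = 0.176, 0.0937 and 0.0546). Without WNK2- Sor replicate 1, 3 or 4 they were 0.45, 0.43 and 0.49 (adjusted p = 0.0955, 0.102 and 0.0599), and without WT Sor replicate 4 it was 0.47 (adjusted p = 0.0514). The sorbitol response itself was smaller in WNK2- than in WT cells, a difference of −1.15 (0.22, adjusted p = 0.00123) in the genotype by sorbitol interaction, for which 8.65% of all genes passed. With WNK2 trans Ctr as the isotonic group this difference was −1.20 (0.22, adjusted p = 0.00119), with 3.39% of all genes passing.

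*PTGS1*, the constitutive cyclooxygenase (ENSG00000095303, GRCh38 chromosome 9, 122370530 to 122395703, plus strand), was barely expressed, with 12 to 51 reads per library. It had 0.788, 1.55, 0.825 and 1.16 CPM in WT Ctr and 2.43, 1.82, 2.43 and 1.95 CPM in WT Sor, without overlap. The increase of 1.00 (SE 0.36, adjusted p = 0.0444 in edgeR) was close to the threshold of 0.05. It was lost against WNK2 trans Ctr (0.49, adjusted p = 0.381), when genes of low count were kept (1.03, adjusted p = 0.0619) and in 10 of 24 fits that left out 1 library. Those were the fits without WT Ctr replicate 1, 3 or 4 (0.88, 0.90 and 1.05, adjusted p = 0.0990, 0.103 and 0.0561) and without WT Sor replicate 1, 2, 3 or 4 (0.94, 1.07, 0.95 and 1.06, adjusted p = 0.0967, 0.0546, 0.0964 and 0.0572). The others left out WNK2 trans Ctr replicate 2, WNK2- Sor replicate 2 or WNK2- Sor replicate 4 (1.00 in each, adjusted p = 0.0505, 0.0506 and 0.0517). It was the gene among the 7 that did not pass in the comparisons with WNK2- cells, with −0.22 (0.38, adjusted p = 0.676) in isotonic medium and −0.71 (interval −1.41 to −0.00, adjusted p = 0.0947) under sorbitol. The latter passed in a fit of these groups alone (adjusted p = 0.0354), without WNK2 trans Sor replicate 2 (−0.72, adjusted p = 0.0435) and without WNK2- Sor replicate 1 (−0.95, adjusted p = 0.0451). Between WNK2 trans Sor and WT Sor it was −0.66 (0.35, adjusted p = 0.149), and −1.18 (adjusted p = 0.0116) without WNK2 trans Sor replicate 2, the library with 2.57 CPM against 0.750 to 1.32 CPM in the other 3. The transfection by sorbitol interaction of −1.17 (0.51, adjusted p = 0.0733) passed without that library (−1.70, adjusted p = 0.00626) or WT Ctr replicate 2 (−1.42, adjusted p = 0.0397).

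*PTGES*, the inducible synthase of prostaglandin E2 (ENSG00000148344, GRCh38 chromosome 9, 129738331 to 129753047, minus strand), did not follow *PTGS2* between WT Ctr and WT Sor. It had 43.9, 34.6, 30.4 and 38.5 CPM in WT Ctr and 26, 25.0, 21.8 and 23.5 CPM in WT Sor, so every sorbitol library was below every isotonic one. The log2 fold change was −0.61 (SE 0.14, adjusted p = 0.00238 in edgeR). In the transfected cells the direction was the opposite, from 8.47, 9.82, 13.3 and 9.64 CPM in WNK2 trans Ctr to 33.7, 21.9, 25.7 and 28.2 CPM in WNK2 trans Sor, a change of 1.41 (0.15, adjusted p = 1.77e-08). The 2 responses differed by 2.02 (0.20, adjusted p = 2.35e-08) in the transfection by sorbitol interaction, for which 35.5% of all genes passed.

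These opposite directions rest on the isotonic groups. The sorbitol groups of the WT background did not differ for *PTGES* beyond their spread (0.19, interval −0.10 to 0.47, adjusted p = 0.325), while WNK2 trans Ctr was below WT Ctr by −1.84 (SE 0.15, adjusted p = 1.95e-09 in edgeR). With the isotonic groups exchanged, WT Sor was higher than WNK2 trans Ctr by 1.22 (0.15, adjusted p = 1.44e-06), and WNK2 trans Sor was lower than WT Ctr by −0.43 (0.14, adjusted p = 0.0172), with overlapping groups. The interaction then became −1.65 (0.20, adjusted p = 1.06e-05), with 5.46% of all genes passing. Since *WNK2* reads go against these 2 labels, the direction of the sorbitol change of *PTGES* in WT cells depends on which libraries are taken as untransfected. The sorbitol change within WNK2- cells does not use these 2 groups, though *WNK2* reads cannot check the WNK2- labels themselves. The WNK2- cells had 5.62, 6.46, 5.96 and 5.26 CPM in WNK2- Ctr and 2.19, 2.59, 2.95 and 2.85 CPM in WNK2- Sor, a decrease of −1.15 (0.17, adjusted p = 1.90e-05) without overlap. Against the WT groups they were lower by −2.66 (0.15, adjusted p = 6.19e-13) in isotonic medium and −3.19 (0.16, adjusted p = 2.59e-14) under sorbitol. The isotonic difference was smaller against WNK2 trans Ctr, −0.82 (0.15, adjusted p = 8.11e-05). The genotype by sorbitol interaction was −0.53 (0.22, adjusted p = 0.129) with WT Ctr and −2.37 (0.22, adjusted p = 1.29e-07) with WNK2 trans Ctr.

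**Figure D3:**
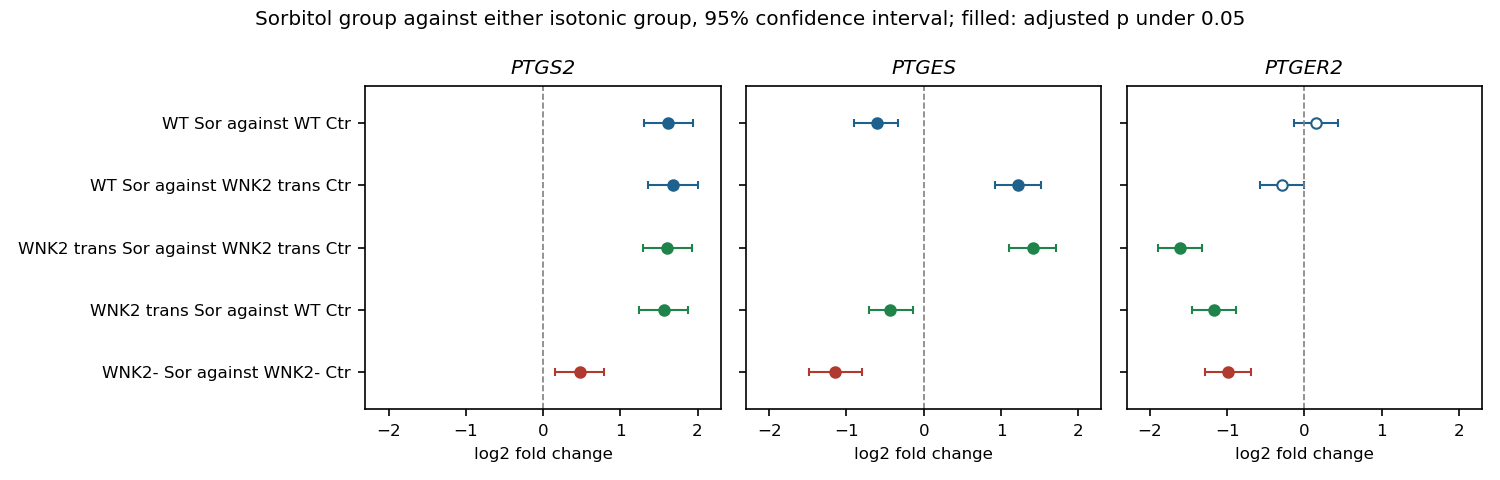
Log2 fold change of sorbitol against isotonic libraries with its 95% confidence interval (edgeR) for PTGS2, PTGES and PTGER2, with filled points for an adjusted p under 0.05. Blue rows set WT Sor, green rows WNK2 trans Sor, against each isotonic WT group in turn, and red rows show WNK2- cells: PTGS2 keeps its side in every row, PTGES changes side with the isotonic group (−0.61 and 1.22 for WT Sor), and PTGER2 passes the test in the transfected and WNK2- rows (−1.61, −1.17 and −0.99).

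*PTGIS*, prostacyclin synthase (ENSG00000124212, GRCh38 chromosome 20, 49503874 to 49568146, minus strand), was low in all groups. WT cells had 7.03 to 9.90 CPM without and 7.62 to 9.61 CPM with sorbitol, and transfected cells 4.94 to 7.35 CPM without and 3.57 to 8.32 CPM with it. In WNK2- Ctr it had 3.04 to 4.41 CPM and in WNK2- Sor 2.91 to 6.16 CPM, both below WT Ctr and WT Sor without overlap. The differences were −1.24 (SE 0.23, adjusted p = 0.000136 in edgeR) and −1.07 (0.23, adjusted p = 0.000426). Against WNK2 trans Ctr the isotonic difference was −0.71 (0.24, adjusted p = 0.0150), and against WNK2 trans Sor the difference under sorbitol was −0.36 (0.23, adjusted p = 0.259). The sorbitol difference of *PTGIS* was 0.06 (interval −0.40 to 0.52) in WT and 0.23 (interval −0.26 to 0.72) in WNK2- cells. With the isotonic groups exchanged it depended on the label, since WT Sor was 0.59 (0.23, adjusted p = 0.0839) from WNK2 trans Ctr, without overlap, and WNK2 trans Sor was lower than WT Ctr by −0.66 (0.23, adjusted p = 0.0263), with overlap. WNK2 trans Sor was lower than WT Sor by −0.71 (0.23, adjusted p = 0.0190) with overlapping groups. That call was lost without WT Sor replicate 1 (−0.67, adjusted p = 0.0521), WNK2 trans Sor replicate 2 (−0.64, adjusted p = 0.0648) or WNK2 trans Sor replicate 3 (−0.57, adjusted p = 0.0786). The transfection by sorbitol interaction was −0.19 (0.32, adjusted p = 0.691), and −1.24 (0.32, adjusted p = 0.0223) with the isotonic groups exchanged.

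*HPGD*, the dehydrogenase that starts prostaglandin breakdown (ENSG00000164120, GRCh38 chromosome 4, 174490177 to 174523154, minus strand), was lower still. It had 31, 70, 37 and 20 reads in WT Ctr (2.04, 4.51, 2.18 and 1.45 CPM) and 24 to 34 reads in WT Sor. In WNK2- Ctr it had 6, 3, 9 and 8 reads and in WNK2- Sor 16, 2, 7 and 4 reads. The WNK2- libraries, at 0.0908 to 0.595 CPM, were below all others, at 0.750 to 4.51 CPM. The log2 fold change was −3.00 (SE 0.45, adjusted p = 6.84e-06 in edgeR) in isotonic medium and −2.41 (0.45, adjusted p = 8.05e-05) under sorbitol, and −2.03 (0.46, adjusted p = 0.000757) against WNK2 trans Ctr. At these counts the size of the difference is uncertain, with an interval of −3.92 to −2.08 in isotonic medium. *HPGD* also passed the filter only through the groups in which it was higher. No sorbitol change of *HPGD* was detectable at this depth, with −0.54 (interval −1.32 to 0.24) in WT and 0.05 (interval −1.02 to 1.12) in WNK2- cells. Transfection gave −0.97 (interval −1.77 to −0.17) in isotonic medium, which did not pass (adjusted p = 0.105 in edgeR). Under sorbitol it gave −0.36 (interval −1.16 to 0.45, adjusted p = 0.518).

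*PTGER2*, the EP2 receptor of prostaglandin E2 (ENSG00000125384, GRCh38 chromosome 14, 52314305 to 52328606, plus strand), fell with sorbitol in WNK2- and in transfected cells, and its change in WT cells did not pass the test. WT Ctr had 15.6, 9.03, 13.8 and 13.8 CPM and WT Sor 15.9, 14.6, 13.1 and 14.3 CPM, overlapping groups that differed by 0.15 (interval −0.13 to 0.43, edgeR adjusted p = 0.457). In WNK2- cells it fell from 8.05, 6.95, 7.79 and 7.21 CPM to 3.72, 4.40, 3.63 and 3.31 CPM, a change of −0.99 (SE 0.15, adjusted p = 2.30e-05). In transfected cells it fell from 16.5, 17.8, 18.8 and 17.8 CPM to 5.96, 6.29, 4.78 and 6.15 CPM, a change of −1.61 (0.14, adjusted p = 9.79e-10). These responses differed from that of WT cells by −1.14 (0.20, adjusted p = 0.000535) for the deletion and −1.76 (0.20, adjusted p = 1.23e-07) for the transfection. With the isotonic groups exchanged these became −0.70 (0.20, adjusted p = 0.0480) and −0.88 (0.19, adjusted p = 0.00689). WT Sor against WNK2 trans Ctr gave −0.29 (0.13, adjusted p = 0.156). WNK2 trans Sor was below WT Ctr by −1.17 (0.14, adjusted p = 5.06e-07), beside −0.99 in WNK2- cells. The sorbitol change of *PTGER2* in WT cells thus depends on which sorbitol libraries are taken as untransfected. The genotype difference with WNK2 trans Sor as that group was not tested. WNK2- cells were below WT by −0.80 (0.14, adjusted p = 4.73e-05) in isotonic medium and −1.94 (0.14, adjusted p = 4.17e-11) under sorbitol, and below WNK2 trans Ctr by −1.24 (0.14, adjusted p = 4.77e-08). WNK2 trans Sor was below WT Sor by −1.32 (0.14, adjusted p = 9.97e-08). WNK2- Sor was below WNK2 trans Sor by −0.62 (0.15, adjusted p = 0.00203). WNK2 trans Ctr was above WT Ctr by 0.44 (0.13, adjusted p = 0.0320), a call that was lost in a fit of these groups alone (0.43, adjusted p = 0.191) and when genes of low count were kept (0.45, adjusted p = 0.0784). It was also lost without WT Ctr replicate 2 (0.30, adjusted p = 0.124), the library at 9.03 CPM, and without WNK2 trans Ctr replicate 2, 3 or 4 (0.44, 0.41 and 0.45, adjusted p = 0.0644, 0.0622 and 0.0661).

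*PTGER4*, the EP4 receptor (ENSG00000171522, GRCh38 chromosome 5, 40679498 to 40693735, plus strand), had 0 reads in every library. A count of 0 allows up to 3 reads, or 0.117 to 0.212 CPM per library, for counting error alone. However, its whole body lies within that of *TTC33* on the opposite strand. Of 1768 protein-coding genes that lie wholly within other gene bodies, 1730 (97.9%) were listed at 0 in all libraries, against 5.75% of those partly inside and 10.8% of those outside other genes. The 0 of *PTGER4* therefore cannot be read as absence of its RNA. Of the 8 genes, 6 overlapped no other annotated gene, and *PTGS1* shared 0.878% of its body with AL162424.1.

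By group, the order of the levels differed from gene to gene. *PLA2G4A*, *PTGS2*, *PTGES* and *HPGD* had both WNK2- groups at the bottom, separated without overlap from the next group. For *PTGS2* the order was WT Sor (543 ± 38.0 CPM), WNK2 trans Sor (518 ± 44.7), WT Ctr (176 ± 24.8), WNK2 trans Ctr (170 ± 44.1), WNK2- Sor (44.4 ± 4.05) and WNK2- Ctr (31.9 ± 6.59), in which the 2 sorbitol and the 2 isotonic WT groups overlapped. For *PTGES* it was WT Ctr (36.8 ± 5.73 CPM), WNK2 trans Sor (27.4 ± 4.96), WT Sor (24.1 ± 1.81), WNK2 trans Ctr (10.3 ± 2.08), WNK2- Ctr (5.83 ± 0.508) and WNK2- Sor (2.64 ± 0.336), with overlap among the highest 3 only between neighbours. For *PTGER2* it was WNK2 trans Ctr (17.7 ± 0.964 CPM), WT Sor (14.5 ± 1.15), WT Ctr (13.1 ± 2.83), WNK2- Ctr (7.50 ± 0.506), WNK2 trans Sor (5.79 ± 0.691) and WNK2- Sor (3.77 ± 0.461), where only WT Sor and WT Ctr overlapped. All neighbouring groups overlapped for *PTGS1* and *PTGIS*.

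Of 30 further genes for phospholipases, terminal synthases, prostanoid receptors, and transport and breakdown, 19 were tested. Between WNK2- Ctr and WT Ctr, 2 of the 19 were higher and 6 lower, with a median log2 change of 0.04, the same share as the 42.1% of all genes. Between WNK2- Sor and WT Sor 3 were higher and 7 lower, with a median of −0.10, beside 46.3% of all genes. Of the 6 other phospholipases tested, 4 were lower in WNK2- Ctr and none higher, by less than *PLA2G4A*: *PLA2G10* by −1.09 (SE 0.26, adjusted p = 0.00133 in edgeR), *PLA2G12A* by −0.70 (0.11, adjusted p = 1.18e-05), *PLAA*, an activator of phospholipase A2, by −0.62 (0.11, adjusted p = 4.07e-05) and *PLA2G4C* by −0.50 (0.15, adjusted p = 0.0108). Against WNK2 trans Ctr 3 were lower, and *PLA2G4C* was not called (−0.21, adjusted p = 0.288). Of the 5 other synthases tested, none was lower in either medium. *PRXL2B*, a prostamide synthase, was higher in WNK2- Ctr by 0.55 (0.19, adjusted p = 0.0205), a call lost against WNK2 trans Ctr (0.32, adjusted p = 0.159), where *AKR1C3* was the 1 synthase called (0.96, adjusted p = 0.00533). *PTGES3*, the cytosolic PGE synthase and HSP90 co-chaperone p23, was higher in WNK2- Sor than in WT Sor by 0.42 (0.11, adjusted p = 0.00224). Among the 4 other prostanoid receptors tested, *PTGFR*, the receptor of prostaglandin F2α, was the 1 that was lower, from 8.62 ± 0.766 CPM in WT Ctr to 1.22 ± 0.0409 CPM in WNK2- Ctr (SD, n = 4), a difference of −2.81 (0.19, adjusted p = 8.77e-12). Against WNK2 trans Ctr it was −4.01 (0.19, adjusted p = 4.66e-15). *TBXA2R*, the thromboxane receptor, was higher by 0.58 (0.20, adjusted p = 0.0243), a call lost against WNK2 trans Ctr (0.35, adjusted p = 0.156). *PTGR1*, which reduces prostaglandin breakdown products, was lower by −0.80 (0.11, adjusted p = 3.22e-06), and by −0.63 (0.11, adjusted p = 5.12e-05) against WNK2 trans Ctr.

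Under sorbitol in WT cells, 3 of the 19 genes were higher and 2 lower, with a median of 0.13, a share near the 24.1% of all genes. *AKR1C3*, which makes prostaglandin F, was higher by 0.81 (SE 0.26, adjusted p = 0.0227 in edgeR), *PTGIR*, the prostacyclin receptor, by 0.73 (0.25, adjusted p = 0.0322) and *PLA2G4C* by 0.50 (0.15, adjusted p = 0.0173). *PTGES3* was lower by −0.62 (0.11, adjusted p = 0.000186) and *SLCO2A1*, the prostaglandin uptake transporter, by −0.59 (0.17, adjusted p = 0.0135). With WNK2 trans Ctr as the isotonic group, the calls of *PTGIR* (0.65, adjusted p = 0.0717) and *SLCO2A1* (−0.36, adjusted p = 0.165) were lost, those of *AKR1C3* (1.55, adjusted p = 0.000201), *PLA2G4C* (0.79, adjusted p = 0.000594) and *PTGES3* (−0.40, adjusted p = 0.0133) were not, and *PTGFR* was lower in WT Sor by −1.30 (0.16, adjusted p = 1.62e-06). In WNK2- cells sorbitol changed 4 of the 19, beside 14.9% of all genes, and in transfected cells 9, beside 48% of all genes. *PTGIR* was higher in both, by 1.53 (0.22, adjusted p = 2.18e-05) and 1.62 (0.23, adjusted p = 3.24e-06), and *AKR1C3* likewise, by 1.14 (0.24, adjusted p = 0.00150) and 1.23 (0.27, adjusted p = 0.000640). Set against WT Ctr, *PTGIR* in WNK2 trans Sor was higher by 1.70 (0.24, adjusted p = 3.74e-06), and *AKR1C3* was no longer called (0.49, adjusted p = 0.140). *SLCO2A1* was lower in WNK2- Sor than in WNK2- Ctr by −1.42 (0.17, adjusted p = 1.41e-06), from 13.8 ± 1.72 to 5.14 ± 0.340 CPM, and this response differed from that of WT cells by −0.83 (0.24, adjusted p = 0.0315), and by −1.06 (0.24, adjusted p = 0.0104) with WNK2 trans Ctr as the isotonic group. *PTGFR* was higher in WNK2 trans Ctr than in WT Ctr by 1.20 (0.16, adjusted p = 5.82e-06) and fell with sorbitol in transfected cells by −2.19 (0.16, adjusted p = 5.52e-11), or by −0.99 (0.17, adjusted p = 4.04e-05) against WT Ctr. Listed at 0 among these genes were *PLA2G4B*, *CBR1*, *CBR3* and *PTGR2*, each at least 99.6% inside other gene bodies.

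**Figure D4:**
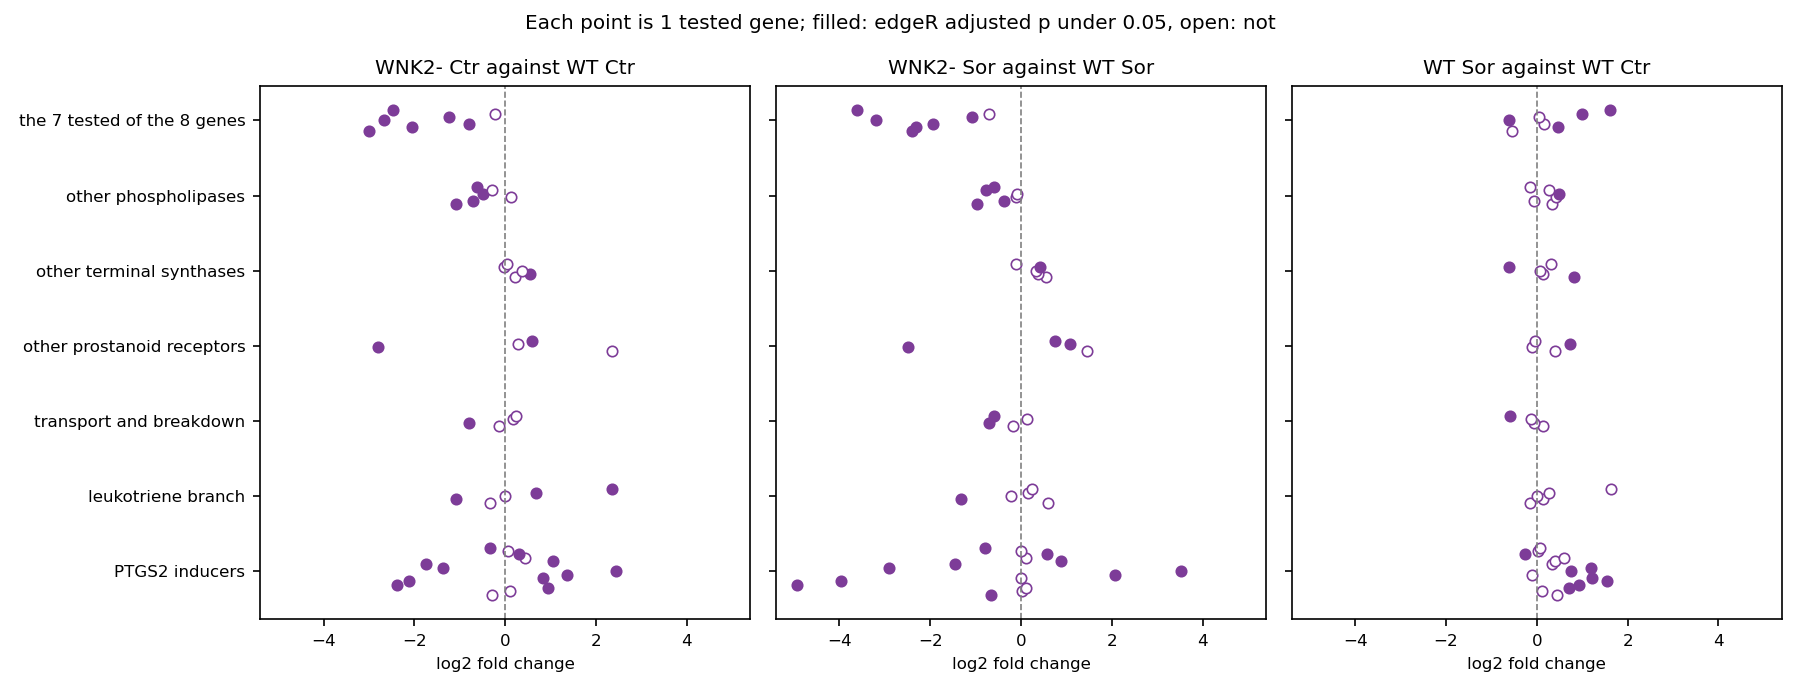
Log2 fold change (horizontal axis) of every tested gene by list (rows) in 3 comparisons, with filled points for an edgeR adjusted p under 0.05. In the WNK2- panels the points of the 7 genes lie at or left of 0 (medians −2.05 and −2.31), while those of the synthase, receptor and transport lists spread to both sides of 0.

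Among 16 genes known to induce or control *PTGS2*, 15 were tested and moved in both directions. Between WNK2- Ctr and WT Ctr, 6 were higher and 5 lower, with a median log2 change of 0.10, beside 42.1% of all genes called, and against WNK2 trans Ctr 5 were higher and 6 lower. The immediate early genes *EGR1* and *FOS*, whose products act on the *PTGS2* promoter, were lower by −2.39 (SE 0.22, adjusted p = 3.44e-09 in edgeR) and −2.11 (0.24, adjusted p = 1.11e-07), and the cytokine *IL6* by −1.74 (0.13, adjusted p = 1.31e-10). By contrast *IL1B*, a cytokine that induces *PTGS2*, was higher by 2.43 (0.16, adjusted p = 1.22e-11), from 7.15 ± 1.76 CPM in WT Ctr to 38.4 ± 1.54 CPM in WNK2- Ctr. Against WNK2 trans Ctr these 4 genes kept their direction and call, *EGR1* with −2.86, *FOS* with −2.54, *IL6* with −0.76 and *IL1B* with 3.10. Under sorbitol *IL1B* reached 139 ± 2.98 CPM in WNK2- Sor against 12.1 ± 1.74 CPM in WT Sor, while its receptor gene *IL1R1* was lower by −2.90 (0.22, adjusted p = 7.49e-11), *EGR1* by −4.93 (0.25, adjusted p = 2.51e-14) and *FOS* by −3.96 (0.25, adjusted p = 1.85e-12). The group with the highest *IL1B* was among the groups with the lowest *PTGS2*. Whether any of these genes had a part in the *PTGS2* difference was not tested.

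Sorbitol in WT cells raised 6 of these 15 genes and lowered 1 (median 0.45, with 24.1% of all genes called), among them *FOS* by 1.54 (SE 0.22, adjusted p = 2.05e-05 in edgeR), *HIF1A* by 1.22 (0.29, adjusted p = 0.00296), *IL1R1* by 1.20 (0.21, adjusted p = 0.000163) and *EGR1* by 0.92 (0.21, adjusted p = 0.00213). With WNK2 trans Ctr as the isotonic group *FOS* was still called (1.10, adjusted p = 0.000892), while *HIF1A* (0.48, adjusted p = 0.262), *IL1R1* (−0.15, adjusted p = 0.691) and *EGR1* (0.46, adjusted p = 0.146) were not. In WNK2- cells *EGR1* fell with sorbitol instead, by −1.61 (0.23, adjusted p = 1.80e-05), and its response differed from that of WT cells by −2.54 (0.31, adjusted p = 5.93e-06), that of *FOS* by −1.86 (0.33, adjusted p = 0.000717) and that of *IL1R1* by −1.52 (0.31, adjusted p = 0.00238). With WNK2 trans Ctr these were −2.07 (0.31, adjusted p = 0.000148), −1.42 (0.33, adjusted p = 0.0121) and −0.17 (0.30, adjusted p = 0.895), so that the *IL1R1* difference was lost. In transfected cells sorbitol raised *IL1B* by 3.76 (0.17, adjusted p = 6.07e-15) and *IL1A* by 2.47 (0.27, adjusted p = 3.58e-08), or by 3.09 and 2.00 against WT Ctr, both called. WNK2 trans Sor was above WT Sor for *IL1B* by 2.33 (0.16, adjusted p = 3.79e-11), while *PTGS2* in these 2 groups differed by −0.07 as given above. A link of these genes to the sorbitol response of *PTGS2* was not tested.

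*PTGS2* and *PLA2G4A* are separated by 149 kb that hold 1 annotated gene, the noncoding RNA gene *PACERR*. In WNK2- Ctr all 3 were lower than in WT Ctr, *PACERR* by −2.22, and in WNK2- Sor *PACERR* was lower than in WT Sor by −2.50. *PACERR* is annotated on the opposite strand from *PTGS2*, and whether the counting used strand is not given in the sources used here. The 20 tested genes nearest to *PTGS2*, which span 8.14 Mb, ranged from −4.66 to 2.00 on the log2 scale in isotonic medium (median 0.01), with 4 higher and 3 lower, and from −7.86 to 2.10 under sorbitol (median −0.18), with 5 higher and 6 lower. *PLA2G4A* and *PACERR* are among these 20 and make up 2 of the 3 lower genes in isotonic medium. The third was ENSG00000237283, beyond *PLA2G4A*, with −4.66 and −7.86, next to *LINC01036*, which was higher by 2.00 and 2.10. Around *PLA2G4A* the medians were −0.04 and −0.39. The neighbours of *PTGES* had medians of −0.10 and −0.08, with *PRRX2* next to it lower by −2.02 in isotonic medium and −3.58 under sorbitol. The neighbours of *HPGD* had medians of −0.15 and 0.08, those of *PTGIS* −0.04 and −0.07, and those of *PTGER2* 0.62 and 0.57, with 12 of 20 higher in WNK2- Ctr while *PTGER2* itself was lower.

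**Figure D5:**
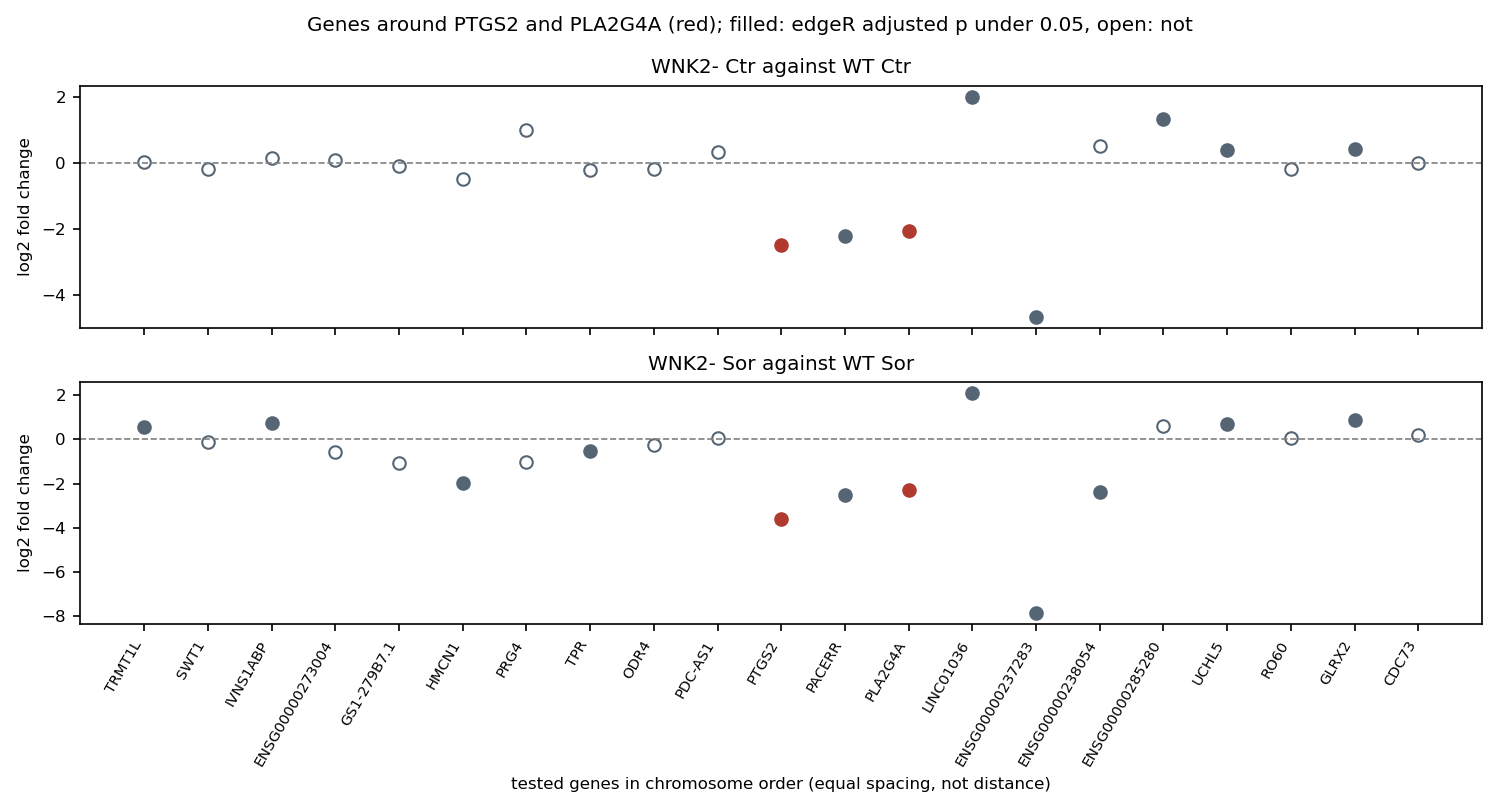
Log2 fold change of the tested genes on either side of PTGS2 in chromosome order (equally spaced, not by distance), WNK2- against WT in isotonic medium (top) and under sorbitol (bottom), with filled points for an edgeR adjusted p under 0.05. PTGS2 and PLA2G4A (red) and PACERR between them lie at −2.05 to −3.61. The 10 genes to their left lie between −0.49 and 0.99 in isotonic medium and are all open. Under sorbitol these run from −1.99 to 0.73, with HMCN1 and TPR (lower) and IVNS1ABP and TRMT1L (higher) filled. Those to the right, beyond PLA2G4A, run from −4.66 to 2.00 in isotonic medium and from −7.86 to 2.10 under sorbitol.

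The genes whose log2 CPM followed each gene most closely over the 24 libraries were found by Pearson's r, as a description with no test, since the libraries fall into 6 groups and share their group differences. *PTGS2* was most like *ABCG1* (r = 0.98), *B4GALT5* (0.98) and *SMARCA2* (0.97). *PLA2G4A* was most like *TMTC1*, *TMEM41B* and *ADAMTS3* (0.98 each). *PTGES* was most like the chemokine gene *CXCL6* (0.97), *DHRS3* (0.97) and *DMBT1* (0.95), and *PTGER2* like *EBF4*, *MGAT3* and *LRRC4B* (0.98 each). *HPGD* was most like *TVP23B*, *MMUT* and the iron exporter gene *SLC40A1* (0.93 each). The likeness was weaker for *PTGIS*, with *TUBB4A* (0.85), *TLE6* (0.84) and *KLC4* (0.82), and for *PTGS1*, with *PKD1L1* (0.73), ENSG00000272622 (0.69) and *ACADM* (0.68).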

How the data were processed

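RNA-seq libraries of T/C-28a2 cells were grouped by their labels, 4 in each of 6 groups. The authors deposited raw counts of reads per Ensembl gene, not normalized, made per the submitters' processing notes with FastQC 0.11.9, HISAT2 2.2.1, HTSeq 2.0.2 and DESeq2 1.38.3 on GRCh38. The study's methods name other versions of HTSeq and DESeq2. The annotation release and the use of strand are not given in the sources used here. Symbols were found for 62625 of 62703 identifiers, and positions and exon lengths come from GENCODE 29. Total counts were 14153002 to 25664619, so that 3 reads correspond to 0.117 to 0.212 CPM.

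Here edgeR 4.0.16 was used in R 4.3.3 (limma 3.58.1). Low genes were removed with filterByExpr at a count minimum of 10 and a total of 15. TMM factors scaled the libraries, and the quasi-likelihood model was fitted with 1 mean for each of 6 groups. Contrasts were tested two-sided with Benjamini-Hochberg adjustment over the 16600 tested genes and a threshold of 0.05. Values in parentheses after a log2 fold change are its standard error, the fold change divided by the root of F. CPM used the TMM-scaled library sizes. P-values set a difference of group means against the spread between the deposited replicates, and do not cover a spread between clones.

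The 8 genes and all gene lists were chosen with earlier results of these data known, so their counts are descriptions and are not independent support. The 7 genes above the filter were tested in every comparison, and not every value is printed in the text. From each list at most 4 genes per comparison were named, those with the largest change among genes past the threshold with a mean of at least 1 CPM, and the 3 most alike genes per gene by Pearson's r of log2 CPM with a prior count of 2. The alternatives were DESeq2 1.42.0, RLE and upper-quartile factors, no filter, at least 10 counts in every library, the compared groups alone, a replicate block, and each library left out. The exchange of the WT groups was added after the data were seen. The scripts were tested on simulated data. There DESeq2 made a larger share of false calls than edgeR, and the limit it had to pass was set after that was seen. In 36 pairs of replicates the chi-square statistic was 2.24 to 60.8 times its degrees of freedom, above sampling noise, so none was merged.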

Additional observations from a re-analysis of the deposited data

Results flagged for a closer look

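In 2 of 42 combinations of gene and group, 1 library stood far from the other 3 by Dixon's test, where chance alone gives about 1 in 20. *PLA2G4A* had 42.6 CPM in WNK2 trans Sor replicate 1 against 58.7 to 60.8 CPM in the other 3 libraries. *HPGD* had 1.76 CPM in WNK2 trans Ctr replicate 1 against 1.12 to 1.22 CPM in the others. The response to sorbitol differed between genotypes for *PTGS2*, by −1.15 on the log2 scale, and for *PTGER2*, by −1.14, both lower in WNK2- cells by the interaction in edgeR. It differed between transfected and untransfected cells for *PTGES*, by 2.02, and for *PTGER2*, by −1.76. The first of these 2 changed sign when the isotonic groups were exchanged. The genotype differences with WNK2 trans Sor as the sorbitol WT group were not tested.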

How the results depend on the processing

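Of 63 tested values of the 7 genes in 9 comparisons, 31 passed the threshold, and 27 of these kept their direction and their call under every other filter, scaling, tool and fit and with each library left out. The other 4 lost the call under some of them, *PTGS1* and *PTGS2* with sorbitol, *PTGER2* and *PTGIS* with transfection, as given with each gene. None of the 31 changed sign except when the WT groups were exchanged. Among values that did not pass, *PLA2G4A* between WNK2 trans Ctr and WT Ctr moved to 0.00 without the filter. *PTGS2* in the transfection by sorbitol interaction moved to 0.00 with DESeq2 and with RLE factors and to 0.03 with upper-quartile factors. *PLA2G4A* in that interaction passed without the filter (−0.49, adjusted p = 0.0449) and with a minimum of 10 counts required throughout (−0.46, adjusted p = 0.0443). *HPGD* had no value under the latter filter. With the compared groups fitted alone, calls over all genes rose to 4824 for WNK2- Sor against WNK2- Ctr and fell to 747 for WNK2 trans Ctr against WT Ctr, where 1 of the 7 genes then passed. There 1 also passed without the filter. The causes were not tested.

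With 1 library left out at a time, values near 0 ran across it: in WT Sor against WT Ctr *PTGIS* from −0.01 to 0.16, in WNK2- Ctr against WT Ctr *PTGS1* from −0.39 to 0.01, and in WNK2- Sor against WNK2- Ctr *PTGIS* from −0.01 to 0.37 and *HPGD* from −0.52 to 0.35. In WNK2 trans Ctr against WT Ctr *PLA2G4A* ran from −0.10 to 0.07 and *PTGS2* from −0.20 to 0.07. In WNK2 trans Sor against WNK2 trans Ctr *PLA2G4A* ran from −0.04 to 0.10, *PTGS1* from −0.69 to 0.03, *PTGIS* from −0.43 to 0.02 and *HPGD* from −0.18 to 0.28. In the interactions *PTGIS* ran from −0.07 to 0.31 with genotype and *PTGS2* from −0.14 to 0.12 with transfection. Of the 7 genes, 1 to 2 passed for WNK2 trans Ctr against WT Ctr and 2 to 4 for the transfection interaction. Over all genes the genotype interaction had 849 to 1908 calls, the lowest without WNK2- Sor replicate 3 and 944 without WNK2- Ctr replicate 2.

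With the WT groups exchanged, calls over all genes were 2499 for WT Sor, 562 for the genotype and 906 for the transfection interaction. For WT Sor the log2 fold changes became 1.22 for *PTGES*, 0.43 for *HPGD* and −0.29 for *PTGER2*. For WNK2 trans Sor they became −0.43 for *PTGES*, 0.34 for *PTGS1* and −0.89 for *HPGD*. The genotype interaction became 0.02 for *PTGS1*, −0.36 for *PTGIS* and −0.38 for *HPGD*, and the transfection interaction −1.65 for *PTGES* and −1.33 for *HPGD*.

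With the replicate number as a replicate block, the calls of the 7 genes did not change, and over all genes 3894 passed for WT Sor against WT Ctr against 4008 without it. The labels do not say that the numbers mark a shared batch, and deviations of same-numbered libraries correlated from −0.78 to 0.89 (median 0.08) over 60 pairs, so the numbers were not taken to pair the samples. Depth limits *PTGS1* and *HPGD* most.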

Other observations

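The leukotriene branch, which competes with the cyclooxygenases for arachidonic acid, was measured in part. Of 9 genes, 5 were tested, and *ALOX12* was listed at 0 and lies wholly inside other gene bodies. Between WNK2- Ctr and WT Ctr, 2 of the 5 were higher and 1 lower, with a median log2 fold change of 0.00. *LTB4R*, a receptor of leukotriene B4, was higher by 0.68 (standard error 0.15, edgeR adjusted p = 0.000727). *ALOX5AP*, which presents arachidonic acid to 5-lipoxygenase and was named after its values were seen, was lower by −1.09 (0.32, adjusted p = 0.00797) at a mean of 0.992 CPM. Against WNK2 trans Ctr *LTB4R* was higher by 0.66 (0.15, adjusted p = 0.000750), and *ALOX5AP* was not called (−0.64, adjusted p = 0.111). Between WNK2- Sor and WT Sor none was higher and 1, again *ALOX5AP*, was lower, by −1.32 (0.32, adjusted p = 0.00134). The shares of all genes called were 42.1% and 46.3%. None of the 5 passed the threshold for sorbitol in WT or in WNK2- cells. *LTA4H*, which makes leukotriene B4, was lower in WNK2 trans Sor than in WT Sor by −0.42 (0.12, adjusted p = 0.0103) and than in WNK2 trans Ctr by −0.43 (0.12, adjusted p = 0.00595), and than in WT Ctr by −0.42 (0.12, adjusted p = 0.00937).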
